A study of Mus musculus with 6 samples.

Results

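Epithelial cells of the uterus are held in shape by a set of polarity proteins, membrane-bound proteases, junction proteins, trafficking proteins and transcription factors, and 31 genes of this kind were followed here. They were chosen by name, with earlier results of these data known. Each was read by exact gene symbol in the platform annotation, with 1 probe set, the one with the highest mean over 6 arrays. All 31 were found, of 18193 genes measured. The study hybridized whole uterine RNA to Affymetrix mouse arrays, which read a transcript by a set of short probes. The 3 mutant samples carried Pgr cre/+ and Ctnnb1f(ex3)/+, so that Cre driven by the Pgr gene deletes exon 3 of Ctnnb1 wherever Pgr is active, in the uterus in epithelial, stromal and muscle cells, and β-catenin becomes stable there. The 3 control samples are labelled wild type, whereas the methods list Pgr cre/+ and Ctnnb1 f(ex3)/+ animals as controls. All samples came from female mice at 4 weeks of age (1 month in the methods). According to the methods, the RNA of each genotype was a pool from 3 mice, which leaves unsettled whether the arrays of a group are separate animals, so p-values measure the spread between arrays, part or all of which may be technical.

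Log2 intensities were used throughout, and an intensity of 16 (log2 of 4) served as a mark for dim probe sets, since 62.3 to 62.6% of probe sets lay below it on each array. Across probe sets, Pearson's r was 0.992 to 0.996 within the control group, 0.994 within the mutant group and 0.981 to 0.990 between the groups. Endometrial stromal, myometrial and broad epithelial markers were present on the arrays, with none of 15, 11 and 19 measured genes below an intensity of 16 on all arrays. Mutant replicate 3 stood apart for epithelial genes. It was the highest of the mutant arrays in 29 of the 31 genes followed and in 17 of 19 other epithelial markers, against 31.5% of all genes. Its mean over 9 oviduct and ciliated cell markers was 4.00, against 3.30 and 3.29 on the other mutant arrays and 3.06 to 3.25 on the control arrays. Much of that gap came from 1 gene, Ovgp1, read at 8.01 against 3.44 and 4.32 on the other mutant arrays. Calls among the members were therefore also counted without this array.

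In a simple epithelium, the Par and Crumbs complexes mark the apical side and the Lgl proteins the basolateral side, and the tight junction separates them. The membrane serine proteases matriptase and prostasin, with their Kunitz-type inhibitors, act at the cell surface of many epithelia and support barrier formation in mouse skin and gut. Transcription factors of the ETS, Krüppel-like and Grainyhead families and the Esrp splicing factors keep epithelial programs active, and loss of such programs is a feature of epithelial–mesenchymal transition (EMT), the question that the study asked of this mutant.

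Of these epithelial genes more were lower than higher in the mutant uterus, and none was lower by as much as 2-fold. At an adjusted p under 0.05 from limma, 10 of 31 were lower, 2 were higher and 19 were not called. The lower genes were Prss8, Spint2, Elf3, Ehf, Klf5, Pard6b, Marveld2, Rab25, Mal2 and Ezr, and the higher genes were Trp63 and Prom2. Since whole uterus was measured, fewer epithelial cells and less RNA per cell cannot be told apart in these values. Over all genes, 6.36% were lower and 5.61% were higher, so the share of lower members (32.3%) lay above the background and the share of higher members (6.45%) lay near it. This background was not matched for intensity. Of the 31 members 5 lay below an intensity of 16 on all arrays, against 7401 of all 18193 genes. The median log2 fold change was -0.29 for the members and -0.01 for all genes, and 23 members had a negative value. In 17 members (54.8%) the mutant values were all under the control values, against 17.4% of all genes, and in 3 (Trp63, Prom1 and Prom2; 9.68%) all above, against 14.9%. Since the members were chosen with earlier results of these data known, these shares describe the list and do not test it. The calls of lower members depended on single arrays. All 10 kept a negative log2 fold change with any 1 array left out, but this was fixed in advance, since their groups did not overlap. Such fits hold fewer arrays, and fewer of all genes were called lower in them too. Without control replicate 1, none was lower at an adjusted p under 0.05 and 14 were lower at an unadjusted p under 0.05. With mutant replicate 3 left out, 10 were lower, of which 8 were among the 10 above, and without mutant replicate 2 only Prss8, Spint2 and Rab25 were. The count was 5 without control replicate 2 (Elf3, Mal2, Prss8, Rab25 and Spint2), 5 without mutant replicate 1 (Ezr, Mal2, Prss8, Rab25 and Spint2), 7 without control replicate 3, and 4 without control replicate 2 and mutant replicate 1 together (Elf3, Mal2, Prss8 and Rab25). Trp63 and Prom2 were higher with any 1 array left out. With values under 16 raised to 16, none of the 31 was called in either direction. Prom2, Pard6b, Elf5, Grhl1 and Myo5b could not be called there, since each then had the same value on all arrays. By the methods' t-test with Benjamini-Hochberg adjustment none of the 31 was called, with 13 lower and 2 higher at an unadjusted p under 0.05.

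**Figure D1:**
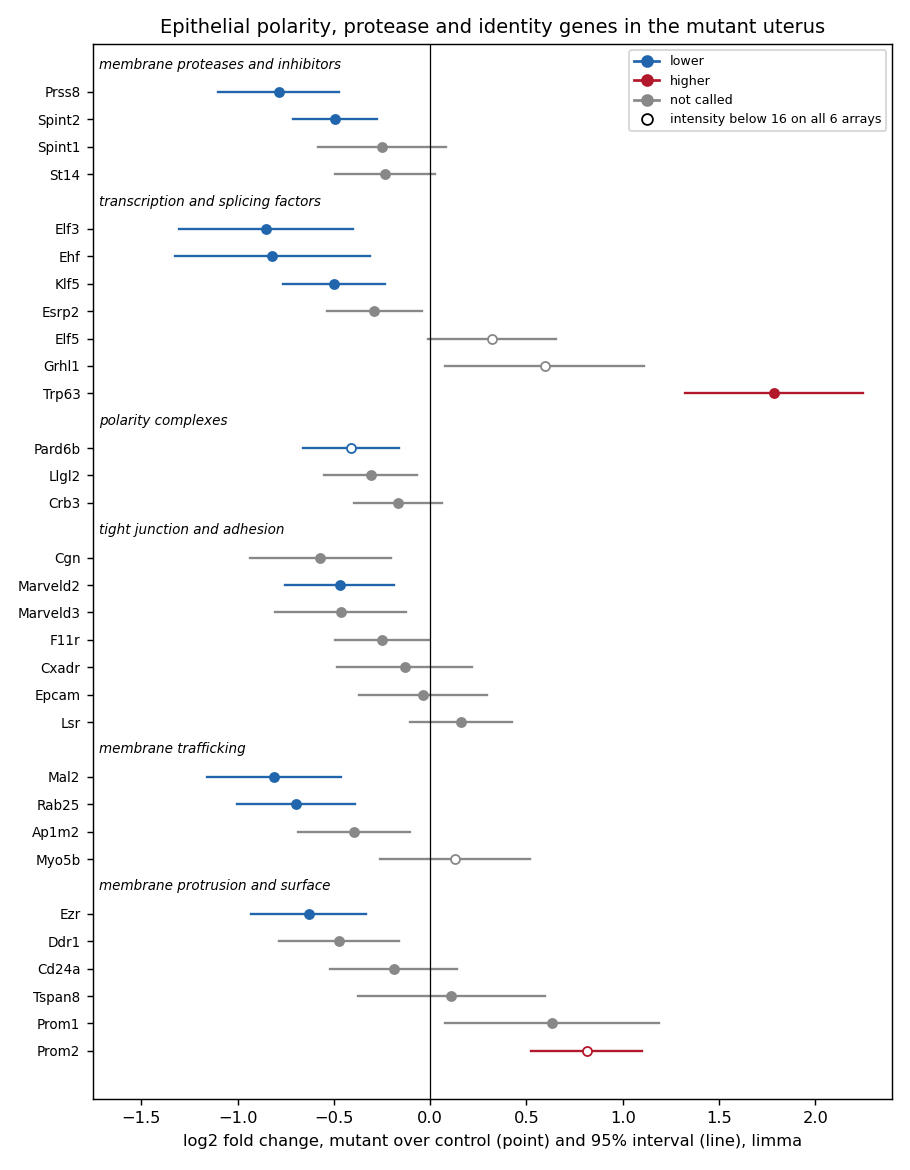
Points give the log2 fold change, mutant over control (x axis), for each of the 31 genes (y axis, grouped by role) with its 95% interval from limma; blue genes were lower, red higher and grey not called, and open points lie below an intensity of 16 on all 6 arrays. Of the 31 points, 23 lie left of 0, and Trp63 lies farthest to the right at 1.79.

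Of the 4 membrane proteases and inhibitors, all with negative log2 fold changes, 2 passed the test. Prss8, which encodes the membrane-anchored protease prostasin, was read at 6.37, 6.23 and 6.35 on control arrays 1 to 3 and at 5.58, 5.25 and 5.77 on mutant arrays 1 to 3. The groups did not overlap, and the mutant level was 1.73-fold lower (log2 fold change -0.79 with a standard error of 0.13, limma adjusted p = 0.0109). Spint2, a Kunitz inhibitor of prostasin and matriptase, was read at 9.99, 9.87 and 9.88 in controls and 9.45, 9.27 and 9.53 in mutants. It fell from 9.91 ± 0.06 to 9.42 ± 0.13 (log2 intensity, SD, n = 3 arrays per group), again without overlap (log2 fold change -0.49 with a standard error of 0.09, limma adjusted p = 0.016). A separate Spint2 probe set moved by -0.52 (adjusted p = 0.0285 with all probe sets adjusted together), while the main Spint2 set is of a type that may bind other transcripts. St14, the gene of matriptase, had values of 6.81, 6.61 and 6.85 in controls and 6.44, 6.43 and 6.71 in mutants, and its groups overlapped. Its log2 fold change of -0.23 did not pass (95% interval -0.49 to 0.03, adjusted p = 0.237). Spint1, the related inhibitor, likewise gave -0.25 (95% interval -0.58 to 0.08, adjusted p = 0.325), with mutant replicate 3 at 5.43 inside the control range. Whether Prss8 differed from St14 in its change was not tested. Prss8 missed the threshold when control array 1 was left out (-0.76, adjusted p = 0.0528) and Spint2 when control array 1 was left out (-0.46, adjusted p = 0.0744).

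Among transcription and splicing factors, the epithelial ETS factors Elf3 and Ehf and the Krüppel-like factor Klf5 were lower, and Trp63 was higher. Elf3, expressed across many epithelia, was read at 6.23, 5.87 and 6.70 in the 3 controls and 5.38, 5.32 and 5.54 in the 3 mutants. The controls spread widely, with an SD of 0.42 against 0.11 in the mutants, but all mutant arrays lay below them (log2 fold change -0.85 with a standard error of 0.19, limma adjusted p = 0.0301). Ehf, a close relative, had values of 7.27, 7.75 and 7.08 in controls and 6.36, 6.34 and 6.95 in mutants. Mutant replicate 3 lay closest to the controls, and the call stood at the threshold (log2 fold change -0.82 with a standard error of 0.22, limma adjusted p = 0.0499). Of 3 further Ehf probe sets, 1 was also lower (-0.78, adjusted p = 0.0366), and the groups did not overlap in any. Klf5, which the mouse uterine epithelium needs for implantation, was read at 6.97, 7.19 and 7.06 in controls and at 6.50, 6.44 and 6.78 in mutants. That is a 1.41-fold lower level without overlap (log2 fold change -0.50 with a standard error of 0.11, limma adjusted p = 0.0302). The other Klf5 probe sets were dim on all arrays and not called, at -0.49 without overlap and -0.06 with overlap. With the mean of all its probe sets Klf5 missed the threshold (-0.35, limma adjusted p = 0.0506). Elf3 missed the threshold when control array 1 or any single mutant array was left out (changes of -0.91 to -0.81, adjusted p from 0.0578 to 0.109). Ehf did so when any single control array or mutant array 1 or 2 was left out (changes of -0.96 to -0.63, adjusted p from 0.0563 to 0.168) and Klf5 when any single control array or mutant array 1 or 2 was left out (changes of -0.55 to -0.43, adjusted p from 0.0706 to 0.103).

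Trp63 moved most of all members. It encodes p63, the factor that marks basal cells of stratified epithelia and is scarce in a simple uterine epithelium. Control arrays read it at 2.62, 2.70 and 2.29, all below an intensity of 16, and mutant arrays at 3.88, 4.54 and 4.56. The groups did not overlap (log2 fold change 1.79 with a standard error of 0.20, limma adjusted p = 0.00208), and mutant replicate 1, the lowest of the mutants, was below that mark too. With values under 16 raised to 16 the call was gone (0.36, adjusted p = 0.383), and with the mean of all its probe sets the change was smaller (0.43, adjusted p = 0.0111). Of 4 Trp63 probe sets, only the one used was called. The other 3 were below an intensity of 16 on all arrays, with log2 fold changes of -0.16, -0.02 and 0.12, and the isoforms that each set reads were not looked up. Esrp2, an epithelial splicing regulator, was read at 5.42, 5.35 and 5.54 in controls and 5.17, 4.98 and 5.30 in mutants, without overlap, but its change of -0.29 (standard error 0.11, adjusted p = 0.126) did not pass. Elf5, an ETS factor of glandular epithelia such as the mammary gland, and Grhl1 lay below an intensity of 16 on all arrays, with Elf5 at 0.32 (95% interval -0.009 to 0.65). The values of Grhl1, a Grainyhead factor, were 2.66, 2.30 and 2.41 in controls and 2.54, 3.15 and 3.46 in mutants, with mutant replicate 1 inside the control range. Its change of 0.60 (standard error 0.22, adjusted p = 0.136) passed only when mutant replicate 1 was left out (0.85, adjusted p = 0.0149 from limma), among the settings that leave out 1 array.

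**Figure D2:**
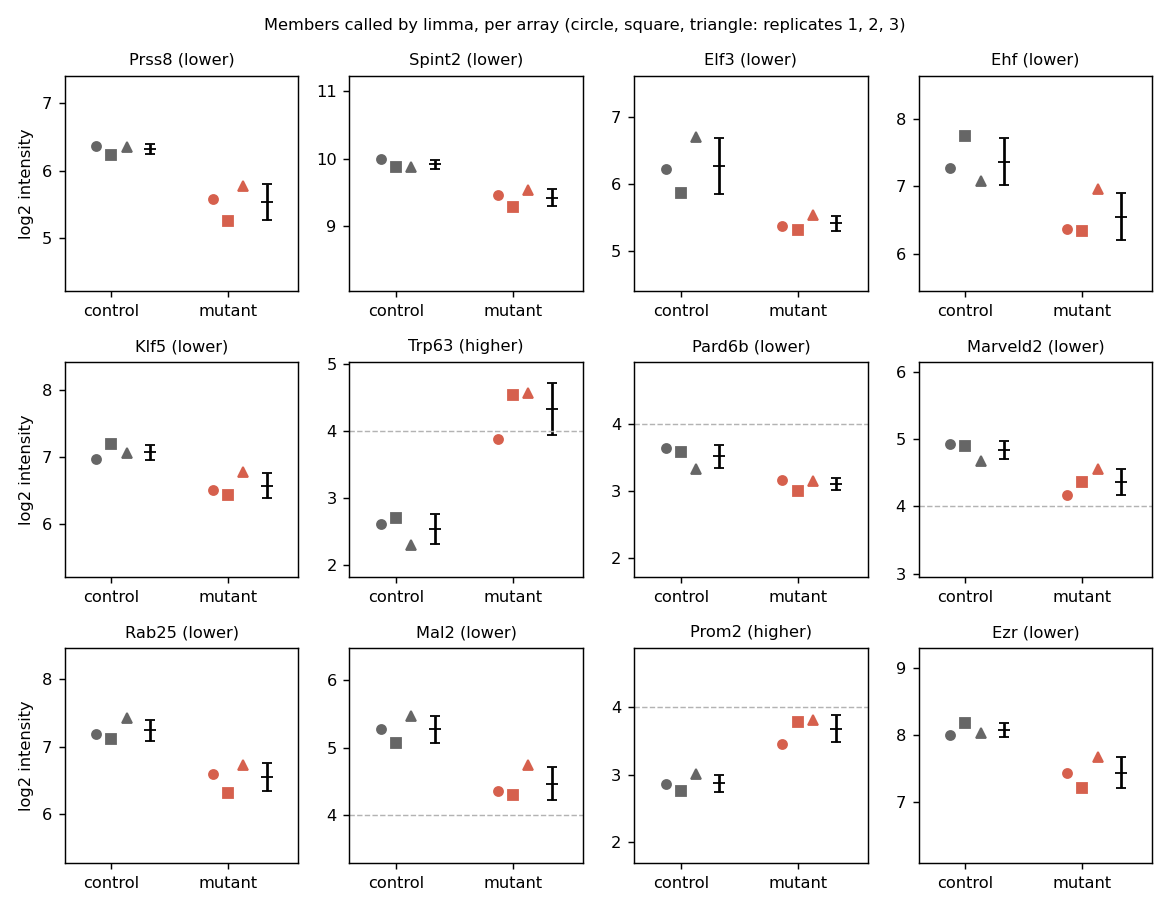
Each panel shows 1 of the 12 called genes, with log2 intensity on the y axis (all panels span 3.2 units) for 3 control (grey) and 3 mutant (red) arrays; black bars give the mean and SD, and the dashed line marks an intensity of 16. In every panel the groups are separate, and mutant replicate 3 (triangle) is the highest mutant array for 9 of the 10 lower genes.

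Of the polarity genes, Pard6b passed the test and Crb3 and Llgl2 did not. Pard6b encodes a Par6 scaffold of the apical Par complex. It was dim on all arrays, at 3.64, 3.57 and 3.32 in controls and 3.17, 2.99 and 3.15 in mutants, without overlap (log2 fold change -0.41 with a standard error of 0.11, limma adjusted p = 0.0475). Its other probe set gave -0.37 (adjusted p = 0.103 with all probe sets adjusted together). It missed the threshold when control array 1 or 2 or any single mutant array was left out (changes of -0.44 to -0.35, adjusted p from 0.0725 to 0.165). Llgl2, a basolateral Lgl protein, was read at 5.89, 6.02 and 5.97 in controls and 5.56, 5.55 and 5.85 in mutants. The groups did not overlap, but the change of -0.31 (standard error 0.10, adjusted p = 0.103) did not pass unless mutant replicate 3 was left out (-0.41, adjusted p = 0.0454). Crb3, a Crumbs protein of the apical membrane, was at -0.17 (standard error 0.10, adjusted p = 0.34) in the probe set used, where the groups overlapped. Both other Crb3 sets had no overlap between groups, at -0.35 and -0.36, and neither was called (adjusted p = 0.139 and 0.0988). Of 16 other polarity genes, 2 were lower, none was higher and 14 were not called, with a median of -0.09. The lower ones were Prkcz, an atypical protein kinase C of the Par complex, at -0.56 (standard error 0.15, adjusted p = 0.0464), and Patj, a scaffold of the Crumbs complex, at -0.56 (standard error 0.13, adjusted p = 0.0329). The core genes Pard3 and Scrib were at -0.06 and -0.09 (adjusted p = 0.789 and 0.613).

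Of 7 junction and adhesion genes, 1 was called. Marveld2, which encodes tricellulin, the MARVEL protein of corners where several cells meet, was read at 4.93, 4.89 and 4.68 in controls and 4.17, 4.37 and 4.56 in mutants. It was 1.38-fold lower without overlap (log2 fold change -0.47 with a standard error of 0.12, limma adjusted p = 0.0463). The threshold was missed when any single control array or mutant array 1 or 2 was left out (changes of -0.55 to -0.37, adjusted p from 0.053 to 0.158). Lsr, the receptor that recruits tricellulin to those corners, was read at 5.83, 5.73 and 6.07 in controls and 6.04, 5.91 and 6.15 in mutants. Its log2 fold change of 0.16 had a 95% interval of -0.10 to 0.42. Cgn, the tight junction plaque protein cingulin, was read at 4.98, 5.12 and 5.20 in controls and 4.47, 4.25 and 4.87 in mutants, without overlap. It missed the threshold over all arrays at -0.57 (standard error 0.16, adjusted p = 0.0569) and passed without mutant replicate 3 (-0.74, adjusted p = 0.0146 from limma). Marveld3, a MARVEL protein of tight junctions, and F11r, the junctional adhesion molecule JAM-A, also had groups that did not overlap, at -0.46 (standard error 0.15, adjusted p = 0.0848) and -0.25 (standard error 0.11, adjusted p = 0.182), and did not pass. Epcam, the epithelial cell adhesion molecule, was read at 9.60, 9.32 and 9.66 in controls and 9.38, 9.33 and 9.76 in mutants, so that the ranges nearly coincided. The Epcam interval ran from -0.37 to 0.30 around -0.04. Cxadr, a tight junction adhesion protein, was at -0.13 (95% interval -0.48 to 0.22), and mutant replicates 2 and 3 lay at 5.15 and 5.21, level with the controls at 5.15, 5.20 and 5.05.

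Of 4 trafficking genes, Rab25 and Mal2 were lower. Rab25, a small GTPase of recycling endosomes in epithelia, was read at 7.19, 7.11 and 7.42 in controls and 6.59, 6.32 and 6.73 in mutants. It was 1.62-fold lower (log2 fold change -0.70 with a standard error of 0.13, limma adjusted p = 0.0154), and the groups did not overlap. Mal2, a membrane protein of the route from the basolateral to the apical side, was read at 5.28, 5.08 and 5.48 in controls and at 4.36, 4.29 and 4.75 in mutants. It fell from 5.28 ± 0.20 to 4.47 ± 0.24 (log2 intensity, SD, n = 3 arrays per group), a 1.75-fold lower level (log2 fold change -0.81 with a standard error of 0.15, limma adjusted p = 0.0146). Ap1m2, the epithelial adaptor subunit for basolateral sorting, had values of 7.28, 6.99 and 7.29 in controls and 6.79, 6.62 and 6.97 in mutants. The groups were separated narrowly, and the change of -0.39 (standard error 0.13, adjusted p = 0.0882) did not pass. Myo5b, the motor that moves Rab11 and Rab25 vesicles, was dim on all arrays, at 0.13 (95% interval -0.26 to 0.52). Of 18 other trafficking genes, 1 was higher, none was lower and 17 were not called, with a median of -0.03. The higher gene was Sytl2, a Rab27 effector, at 0.65 (standard error 0.11, adjusted p = 0.0116). The ubiquitous relatives Rab11a and Ap1m1 were at -0.10 and 0.12 (adjusted p = 0.449 and 0.421). Rab25 missed the threshold when control array 1 was left out (-0.72, adjusted p = 0.0567) and Mal2 when control array 1 or mutant array 2 was left out (changes of -0.81 to -0.72, adjusted p from 0.0585 to 0.0601).

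Of 6 surface and protrusion genes, Ezr was lower and Prom2 higher. Ezr, which encodes ezrin, the linker of actin to the membrane of microvilli, was read at 8.00, 8.19 and 8.03 in controls and 7.44, 7.21 and 7.68 in mutants. It was 1.55-fold lower without overlap (log2 fold change -0.63 with a standard error of 0.13, limma adjusted p = 0.0204). Ezr missed the threshold when any single control array or mutant array 2 was left out (changes of -0.67 to -0.51, adjusted p from 0.0534 to 0.063), and the second Ezr probe set gave -0.24 (adjusted p = 0.244). Its relatives Rdx and Msn, in the list of other trafficking genes, were at 0.16 and -0.21 (adjusted p = 0.305 and 0.29). Prom1 and Prom2 encode prominins, pentaspan proteins of membrane protrusions, and both had mutant arrays above all controls. Prom2 was read at 2.85, 2.75 and 3.01 in controls and 3.45, 3.79 and 3.82 in mutants, below an intensity of 16 throughout, and it rose without overlap (log2 fold change 0.81 with a standard error of 0.12, limma adjusted p = 0.00715). Its other probe set was at 0.03 (adjusted p = 0.953), and the mean of both did not pass (0.42, adjusted p = 0.0681). Prom1 was bright, at 8.14, 7.65 and 8.39 in controls and 8.44, 8.49 and 9.14 in mutants, but control replicate 3 and mutant replicate 1 nearly touched. Its change of 0.63 (standard error 0.24, adjusted p = 0.14) did not pass. Ddr1, a collagen receptor of epithelia, was at -0.47 (standard error 0.13, adjusted p = 0.0631), without overlap. All 8 Ddr1 probe sets had negative log2 fold changes, from -0.47 to -0.05, and none was called. The Ddr1 gene passed without control replicate 3 (-0.58, adjusted p = 0.0473). Cd24a, a glycosylated surface antigen, and Tspan8, a tetraspanin, overlapped between groups in the probe sets used, at -0.19 (95% interval -0.52 to 0.14) and 0.11 (95% interval -0.37 to 0.59). Another Cd24a probe set overlapped at -0.15. A further one had no overlap at -0.46 but was not called (adjusted p = 0.0897 with all probe sets adjusted together). For Tspan8 the spread came from mutant replicate 3, at 9.36 against 8.58 and 8.61 in the other mutants.

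The 31 members had 72 probe sets in all, and 11 members had a single one. With all probe sets adjusted together, 9 of the 72 were lower, 2 were higher and 61 were not called. Of the 41 sets not used for the genes, 28 lay below an intensity of 16 on all arrays and none of these was called, whereas 2 of the remaining 13 were lower, in Spint2 and Ehf, and none was higher. In this adjustment the main probe sets of Ehf, Pard6b and Marveld2 missed the threshold (adjusted p = 0.0523, 0.0559 and 0.0525).

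Because 10 members were lower together, their promoters were compared, taken from RefSeq (GRCm38.p6) as 250 bases before to 50 after each start site. Of the 31 members 19 matched, with 27 start sites, and 12 did not (St14, Prss8, Ehf, Klf5, Trp63, Esrp2, Llgl2, Marveld3, Cxadr, Myo5b, Mal2 and Cd24a). Motifs were searched on both strands, and start sites of 1 gene may overlap, as for Crb3 and Marveld2. The E-box CAGGTG, a sequence that Zeb and Snail repressors and other E-box factors can bind, was found in 16 of the 27 windows (59.3%), in 13 genes, against 20.2% of 32851 mouse promoters of this length. Of genes called lower it was found in 5 of 6 (Spint2, Elf3, Pard6b, Rab25 and, after the start sites only, Marveld2, but not Ezr), and of genes not called in 8 of 12, Epcam and Lsr among them. The Grainyhead motif AACCNGTT was found in 4 windows (14.8%; Rab25, Cgn and both Prom1 start sites) against 2.09%, the ETS motif CCGGAAG in 5 (18.5%) against 8.86%, and the TCF/LEF motif ATCAAAG in 1 (3.70%, Elf5) against 3.73%. Matches to different motifs did not overlap in these windows. These shares are descriptions of genes chosen by name, and a match is not a measured binding site.

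Printed here, 5′ to 3′, are the 250 bases before the start site of 3 genes that were lower (Rab25, Spint2 and Elf3), of 2 with E-boxes that were not called (Ap1m2 and Epcam) and of Prom2, which was higher and had no match. Capitals mark CAGGTG or its reverse complement and, in Rab25, the Grainyhead motif upstream of both E-boxes.
Rab25 (GRCm38.p6, chr3:88548280-88548529, minus strand): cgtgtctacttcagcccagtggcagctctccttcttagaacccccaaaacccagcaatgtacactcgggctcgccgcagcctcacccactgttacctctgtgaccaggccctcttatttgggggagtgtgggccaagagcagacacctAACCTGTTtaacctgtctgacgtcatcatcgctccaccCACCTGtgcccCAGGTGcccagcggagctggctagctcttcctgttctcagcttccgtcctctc
Spint2 (GRCm38.p6, chr7:29281978-29282227, minus strand): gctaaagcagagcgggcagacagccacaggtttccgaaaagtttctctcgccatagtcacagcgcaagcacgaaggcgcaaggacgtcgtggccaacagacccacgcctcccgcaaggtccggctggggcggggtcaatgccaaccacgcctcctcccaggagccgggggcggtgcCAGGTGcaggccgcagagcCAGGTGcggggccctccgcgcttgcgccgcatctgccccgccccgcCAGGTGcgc
Elf3 (GRCm38.p6, chr1:135258473-135258722, minus strand): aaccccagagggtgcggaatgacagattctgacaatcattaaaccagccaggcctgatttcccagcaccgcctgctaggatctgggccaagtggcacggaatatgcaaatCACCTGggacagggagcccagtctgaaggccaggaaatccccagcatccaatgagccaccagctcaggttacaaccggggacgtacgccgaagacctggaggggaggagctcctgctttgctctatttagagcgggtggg
Ap1m2 (GRCm38.p6, chr9:21312334-21312583, minus strand): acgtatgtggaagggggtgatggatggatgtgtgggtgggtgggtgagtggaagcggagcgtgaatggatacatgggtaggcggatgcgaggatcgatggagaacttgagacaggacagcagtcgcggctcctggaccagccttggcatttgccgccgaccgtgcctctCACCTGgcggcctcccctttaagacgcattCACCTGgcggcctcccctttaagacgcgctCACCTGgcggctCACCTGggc
Epcam (GRCm38.p6, chr17:87635729-87635978, plus strand): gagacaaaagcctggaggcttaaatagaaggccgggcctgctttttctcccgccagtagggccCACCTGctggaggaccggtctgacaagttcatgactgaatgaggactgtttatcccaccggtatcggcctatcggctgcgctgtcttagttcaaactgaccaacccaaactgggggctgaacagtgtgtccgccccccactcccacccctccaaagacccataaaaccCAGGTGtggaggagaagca
Prom2 (GRCm38.p6, chr2:127541418-127541667, minus strand): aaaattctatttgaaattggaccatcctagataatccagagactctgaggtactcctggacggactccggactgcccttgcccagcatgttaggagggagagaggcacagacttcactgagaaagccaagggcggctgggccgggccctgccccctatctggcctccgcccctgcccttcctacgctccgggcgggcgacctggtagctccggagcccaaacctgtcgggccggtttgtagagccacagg

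The first E-box base lay at -64 and -53 in Rab25, at -74, -55 and -9 in Spint2, at -140 in Elf3 and at -187 and -19 in Epcam, counted from the base before the start site as -1. Ap1m2 had 4 matches, at -81, -51, -21 and -9.

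**Figure D3:**
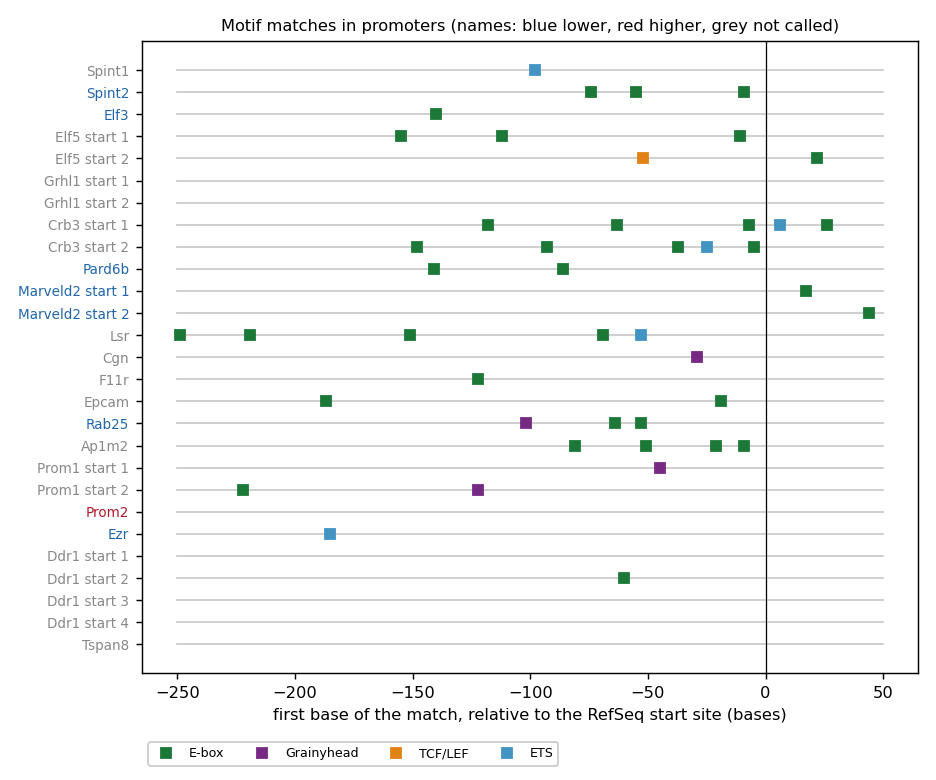
Each grey line is 1 of 27 promoter windows from 250 bases before to 50 after the start site (x axis, bases from it), and squares mark the first base of a match to the motif named by colour; gene names are blue for lower, red for higher and grey for not called. E-box squares stand in 16 windows, while the windows of Prom2, Tspan8 and Grhl1 and 3 of 4 of Ddr1 are empty.

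Other epithelial markers were read beside the members. Of 19 other epithelial markers, 6 (31.6%) were lower, none was higher and 13 were not called, with a median of -0.40. The lower ones included Erbb3, a receptor of the ErbB family, at -1.13 (standard error 0.16, adjusted p = 0.00611), and Tjp3, the tight junction plaque protein ZO-3, at -0.81 (standard error 0.19, adjusted p = 0.0337). The others were Krt18, a keratin, at -0.80 (standard error 0.12, limma adjusted p = 0.00584), Wfdc2 at -0.75, Krtcap3 at -0.63 and Dsp at -0.46. Cdh1, the E-cadherin gene, was at -0.28 without overlap between groups (limma adjusted p = 0.122). Krt8, a keratin of simple epithelia, was at -0.48 with overlap (limma adjusted p = 0.117). Neither Cdh1 nor Krt8 passed, and both were chosen as defining markers after their values were seen. The mean log2 intensity of these 19 markers was 7.67, 7.51 and 7.72 on control arrays and 7.13, 7.03 and 7.50 on mutant arrays, so that mutant replicate 3 nearly reached control replicate 2. The mean over the 31 members was 6.24, 6.17 and 6.23 and 5.90, 5.93 and 6.26, and here mutant replicate 3 lay above all controls. The part of this shared shift in the result of each member was not tested.

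To set the members beside other epithelial genes of the same array, the mean of the 19 markers was subtracted from each gene on each array. The log2 fold changes of these markers ran from -1.13 to 0.28. Whether their mean follows the amount of epithelium was not tested. This subtraction raised every gene in the mutant by 0.41 on the log2 scale, and over all genes the mutant arrays then lay all below the controls in 1.65% and all above in 45.9%. Of the members, 5 (16.1%) were below on all arrays, namely Elf3 (-0.44), Mal2 (-0.40), Prss8 (-0.38), Rab25 (-0.29) and Ezr (-0.22), 11 (35.5%) were above and 15 overlapped. Spint2, Klf5, Pard6b, Marveld2 and Ehf, called lower before, overlapped between groups after it, at -0.08, -0.09, 0.001, -0.06 and -0.41. Genes with a bright signal that came out above included Prom1 (1.04), Lsr (0.57), Tspan8 (0.52) and Epcam (0.37). These differences carry no test.

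**Figure D4:**
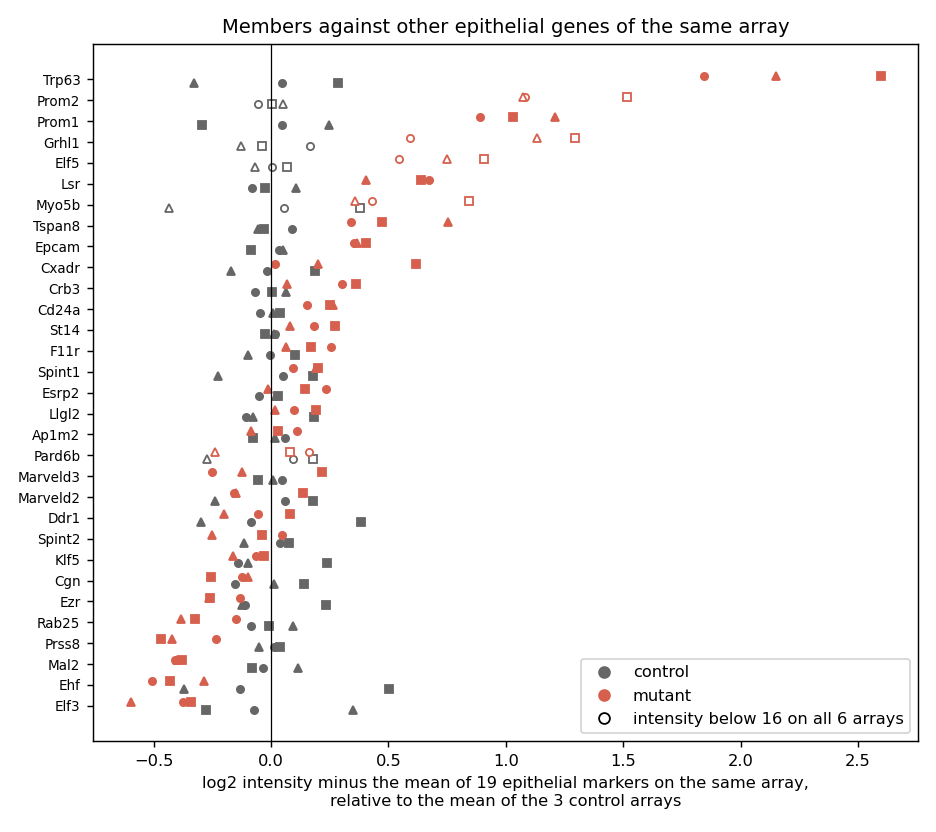
For each member (y axis) the points give log2 intensity minus the mean of 19 epithelial markers on the same array, relative to the control mean (x axis), for control (grey) and mutant (red) arrays with circle, square and triangle for replicates 1, 2 and 3; open points lie below an intensity of 16 on all arrays. Mutant points of Elf3, Mal2, Prss8, Rab25 and Ezr lie left of their controls, and those of 11 genes lie right of theirs.

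Basal epithelial genes were read beside Trp63. Of 15 basal and squamous markers 4 were higher, none was lower and 11 were not called. Of these values 5 were negative, and the median was 0.13. Krt15, a keratin of basal cells, was at 3.49 (standard error 0.27, adjusted p = 0.00052), Sprr1a, a protein of the cornified envelope, at 2.14 (standard error 0.43, adjusted p = 0.0197), Krt5, another basal keratin, at 1.59 (standard error 0.23, adjusted p = 0.00586), and Pkp1, a desmosome protein of stratified epithelia, at 0.66 (standard error 0.09, adjusted p = 0.00535). Pkp1 was dim on all arrays, and Krt15 and Krt5 were dim on the 3 control arrays. Krt14, which pairs with Krt5, was dim on all arrays at 0.30 (adjusted p = 0.258), as were 10 of the 15 markers, and Krt14 is named although it was not called. The mean of the list was 2.75 to 2.89 on the control arrays and 3.27 to 3.55 on the mutant arrays. Of 13 luminal and glandular markers, 3 were higher, 1 was lower and 9 were not called, with Ihh, a hedgehog ligand, at 2.48 (standard error 0.30, adjusted p = 0.00314), Cxcl15, a chemokine of uterine glands, at 1.87 (standard error 0.14, adjusted p = 0.0004), and Foxa2, a factor of gland formation, at 1.54 (standard error 0.17, adjusted p = 0.00193). The lower gene was Wnt7a, a Wnt ligand of the luminal epithelium, at -1.71 (standard error 0.24, adjusted p = 0.00531). Of the 13 values 8 were negative, the median was -0.07, and the mean of that list was 4.88 to 5.13 on the control arrays and 5.07 to 5.67 on the mutant arrays.

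Other genes near the members' roles were read from lists drawn up with earlier results known. A list of 17 genes around the membrane proteases held, besides proteases, sodium channel subunits, growth factors, their receptors and a serpin. Of these 17, 1 was lower, none was higher and 16 were not called, and 10 were dim on all arrays. The lower gene, not itself a protease, was Scnn1b, a subunit of the sodium channel that prostasin activates. It was dim on all arrays, at -0.52 (standard error 0.11, limma adjusted p = 0.02). Of 16 other epithelial transcription and splicing genes, 4 were lower, none was higher and 12 were not called, with a median of -0.15. Tfcp2l1, a Grainyhead-related factor, was at -1.28 (standard error 0.27, adjusted p = 0.0217), Klf4, a Krüppel-like factor, at -1.19 (standard error 0.09, adjusted p = 0.000381), and Ovol2, a zinc finger factor that represses EMT genes, at -0.97 (standard error 0.12, adjusted p = 0.00339). Grhl2 and Esrp1, the close relatives of Grhl1 and Esrp2, were at -0.09 (adjusted p = 0.726) and -0.46 (adjusted p = 0.118).

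Markers of other cells were counted beside these results, over the genes of each list that were measured. Of 15 stromal markers 2 were higher and 1 was lower, with list means of 9.62 to 9.80 on the control arrays and 9.71 to 9.92 on the mutant arrays, and of 11 myometrial markers none was called, with means of 9.19 to 9.44 on the control arrays and 8.87 to 9.33 on the mutant arrays. Of 12 endothelial markers 1 was lower, with means of 6.15 to 6.28 on the control arrays and 6.01 to 6.28 on the mutant arrays. Macrophage markers were higher in 7 of 14 and lower in none, with means of 6.07 to 6.09 on the control arrays and 6.36 to 6.49 on the mutant arrays, and adipocyte markers were higher in 3 of 11 and lower in none, with means of 4.21 to 5.53 on the control arrays and 6.04 to 6.58 on the mutant arrays. Of 12 lymphocyte and plasma cell markers 1 was higher and 2 were lower (means of 3.08 to 3.33 on the control arrays and 3.09 to 3.30 on the mutant arrays). Of 9 mesothelial markers 1 was lower (means of 5.23 to 5.58 on the control arrays and 4.92 to 5.18 on the mutant arrays), and of 9 oviduct and ciliated cell markers 2 were higher, both dim on all arrays (means of 3.06 to 3.25 on the control arrays and 3.29 to 4.00 on the mutant arrays). The 2 called ciliated cell genes were Tekt1, an axoneme protein, at 0.44 (standard error 0.08, adjusted p = 0.0131), and Foxj1, the regulator of ciliated cells, at 0.34 (standard error 0.08, adjusted p = 0.0401). Ovgp1, the oviduct glycoprotein, was read at 2.49, 4.60 and 3.10 in controls and 3.44, 4.32 and 8.01 in mutants and was not called (adjusted p = 0.35). Mutant replicate 3 was thus far above the other arrays, and it was also the highest array for the cilium genes Cfap126, at 5.53, and Rsph1, at 4.85. The lower mesothelial gene was Rspo1, a Wnt agonist, at -1.70 (standard error 0.30, adjusted p = 0.012), and the mesothelial genes Wt1 and Upk3b were above an intensity of 16 on all arrays, at -0.30 and -0.20 (adjusted p = 0.114 and 0.388). The part of other cell types in the member results was not tested.

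**Figure D5:**
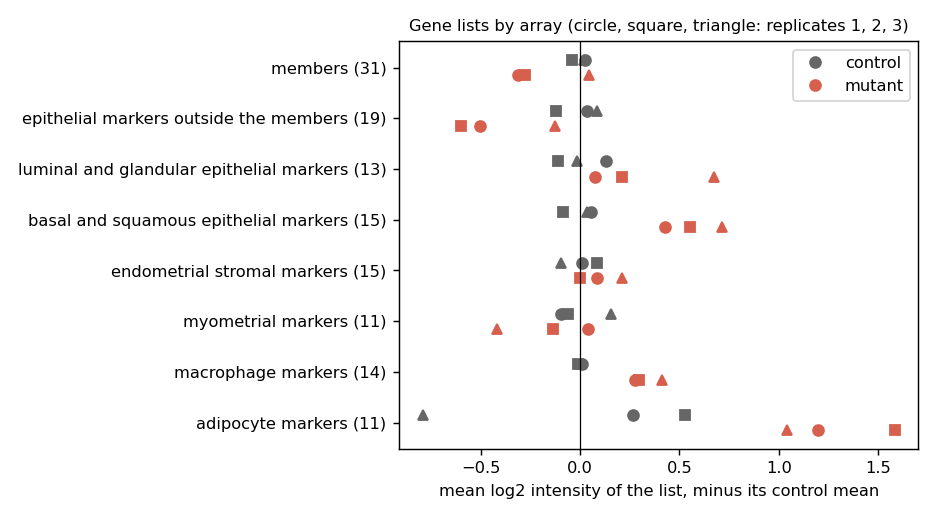
The mean log2 intensity of each list on an array, minus the mean of the 3 control arrays (x axis), is given for 8 lists (y axis, number of measured genes in brackets) for control (grey) and mutant (red) arrays, with circle, square and triangle for replicates 1, 2 and 3. Mutant replicate 3 lies to the right of the other mutant arrays for the members and the 3 epithelial lists, and also for the stromal and macrophage lists.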

How the data were processed

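For each array, the authors deposited a linear intensity per probe set. The submitters' processing notes name RMA, which summarizes probes after background correction and normalization between arrays, with its version not given in the sources used here. Since limma was planned on a log2 scale, log2 was taken after a floor of 1, which changed 0 values. Platform annotation gave exactly 1 symbol to 34945 of 45037 probe sets. Each of 18193 genes was read by the probe set of highest mean. Mutant arrays (n = 3) were set against control arrays (n = 3) by limma 3.58.1 in R 4.3.3, p-values were adjusted by Benjamini-Hochberg over these genes, and 0.05 was the threshold. Group means carry SDs. No batch is named in the labels, and the number of arrays limits the precision. The test steps were tested on simulated data. Members and gene lists were chosen with earlier results of these data known. All members are named; of other lists, the called genes with the largest change, up to 3 a list (2 for marker lists), or the 2 with the smallest p. Genes named beyond this were chosen after their values were seen: Pard3, Scrib, Rab11a, Ap1m1, Rdx, Msn, Cdh1, Krt8, Krt18, Wfdc2, Krtcap3, Dsp, Krt5, Pkp1, Krt14, Grhl2, Esrp1, Foxa2, Wnt7a, Ovgp1, Cfap126, Rsph1, Wt1 and Upk3b. For most cell markers other than epithelial ones, only counts are given. Alternatives were scalings, uses of probe sets, a filter on low genes, a floor of 16, array weights, a trend of variance with intensity, a replicate block, the methods' t-test, a fold threshold and leaving out arrays.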

Additional observations from a re-analysis of the deposited data

How the results depend on the processing

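The median of the members stayed negative in all 18 alternative settings, at -0.41 to -0.21 with 1 array left out. With arrays left out its sign was fixed in advance, since 17 of 31 members had all mutant values under the control values. Several other settings, such as the intensity trend, leave the fold changes as they were. With the mean of all probe sets 1 member was higher, and with the lowest 40% of genes left out, which kept 26 members, none was (1 at an unadjusted p under 0.05). A floor of 16 left none higher and none lower, with 283 and 243 of all genes; 7404 genes then had the same value on all arrays, and 15 members were lower and 0 higher at an unadjusted p under 0.05. The methods' t-test also called none of the members (13 lower and 2 higher before adjustment), with 105 and 39 of all genes. At a fold above 1.5 with an unadjusted p under 0.05, 4 members were higher and 6 lower, with 744 and 757 of all genes. On leaving out 1 array, 2 to 3 members were higher and 0 to 10 lower, with 480 to 971 and 372 to 1139 of all genes. Without control replicate 2 and mutant replicate 1 together, 4 members were lower and 3 higher. Filter and left-out settings test fewer genes or arrays by construction; for the others the cause was not tested. With array weights, 13 members were lower. Same-numbered arrays were not treated as pairs, since their deviations correlated at only 0.011 for number 1, beside 0.21 and 0.16. As a hint of pairing, each mutant array correlated best with the control of its number, as did controls 2 and 3 with the mutant of theirs, but control replicate 1 correlated best with mutant replicate 3 (0.11). With the replicate block, 9 members were lower and 3 higher, and 1085 and 966 of all genes. Of the 10 lower members 7 were kept, Ehf, Pard6b and Marveld2 missed the threshold (adjusted p = 0.0844, 0.0653 and 0.0868), and Cgn and Ap1m2 (both 0.0404) and Prom1 (0.0328) were added. Changes of dim genes such as Pard6b, Prom2, Grhl1, Elf5 and Myo5b are uncertain and may be understated or overstated. The other Elf5 probe set, also dim on all arrays, gave -0.11 against 0.32 in the one used. Other Myo5b probe sets gave 0.02 and 0.002.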
